A study of Rattus norvegicus with 6 samples.

Results

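Melanin synthesis and melanosome genes were measured by RNA sequencing in retinas of BN rats, a pigmented inbred strain, after injection into the vitreous, the gel that fills the eye. The set holds 10 genes, chosen by symbol, of the 34335 genes in the deposited count table, and all 10 were found there. One group of 3 libraries came from eyes of wild-type rats injected with 2 µL of DMP, a cationic micelle given at 10 mg/mL in water. The group it was set against, also of 3 libraries, came from eyes of wild-type rats injected with saline. The carrier liquid thus differed along with the micelle, and the effects of these cannot be told apart. The labels number the libraries of each group 30, 31 and 33. Nothing in them ties a library to an animal, so a p-value here reflects only how far these samples spread, and that spread may be technical. The sources used here give neither the age of the rats nor the time from injection to collection. By its title the study is about vessels that grow from the choroid into the retina, and the comparison asks which retinal transcripts differed after DMP.

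Melanin is built in the melanosome, a lysosome-related organelle. Tyrosinase (Tyr) starts the pathway from tyrosine, and the related enzymes Tyrp1 and Dct act further along towards the dark pigment eumelanin. Pmel forms the fibrils on which melanin is laid down, Mlana is a small membrane protein that assists Pmel, and the transporters Oca2, Slc45a2 and Slc24a5 set the ionic state in which melanin is made. The transcription factor Mitf binds a short promoter element, the M-box, in genes of pigment cells. In the eye melanin is made in the retinal pigment epithelium, in the pigmented epithelia of the ciliary body and iris, and in melanocytes of the choroid and iris, while the neural retina itself makes none. Gpnmb, a relative of Pmel, is found in melanosomes of pigment cells and is also made by activated macrophages.

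The M-box connects Mitf with its target genes, so the promoter sequences that hold its core are shown before the values. RefSeq promoter windows of 300 bases, 250 before and 50 after each gene's start on build GRCr8, were matched by symbol for 8 of the 10 genes, all but Slc45a2 and Slc24a5. The M-box core searched was TCATGTG on either strand. It was present in 5 of these 8 windows, against 3.56% of all 33469 windows of that length. The stretches around it follow, 5′ to 3′ in the direction of the gene, with the element in capitals, which read CACATGA where the core lies on the opposite strand.
Tyr: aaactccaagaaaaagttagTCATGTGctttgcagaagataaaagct
Tyrp1: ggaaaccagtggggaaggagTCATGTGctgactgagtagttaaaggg
Dct: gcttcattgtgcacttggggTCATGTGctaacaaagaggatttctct
Mlana: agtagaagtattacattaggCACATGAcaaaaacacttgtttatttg
Gpnmb: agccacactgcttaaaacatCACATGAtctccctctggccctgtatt
These stretches lie on GRCr8 at chr1:150622952-150622998 on the minus strand for Tyr, chr5:100327037-100327083 on the plus strand for Tyrp1, chr15:101508141-101508187 on the minus strand for Dct, chr1:236882851-236882897 on the plus strand for Mlana and chr4:79341086-79341132 on the plus strand for Gpnmb.

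In the enzyme genes Tyr, Tyrp1 and Dct the core read in the direction of transcription and was followed by the bases ct. It began 121 bases before the start of Tyr, 68 before that of Tyrp1 and 138 before that of Dct. In Mlana and Gpnmb it lay on the opposite strand, with its leftmost base 204 and 22 bases before the start. The shorter E-box CATGTG, which is contained in the M-box core, was found in the same 5 windows, against 14% of all windows. Tyr held a further copy of it 27 bases before the start. The whole window of Tyr, the gene with the widest fitted difference below, is printed with both elements in capitals and lies at chr1:150622808-150623107 on the minus strand of GRCr8.
Tyr window: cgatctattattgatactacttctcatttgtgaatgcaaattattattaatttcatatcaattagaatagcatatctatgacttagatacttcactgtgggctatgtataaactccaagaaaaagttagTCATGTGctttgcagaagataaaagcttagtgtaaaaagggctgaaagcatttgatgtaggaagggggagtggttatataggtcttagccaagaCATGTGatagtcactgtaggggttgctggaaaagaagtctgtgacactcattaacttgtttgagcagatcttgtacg
The palindromic E-box CACGTG was in 0 of the 8 windows, against 6.42% of all windows. The windows of Pmel, Oca2 and Mitf held none of the 3 elements, which says only that these letters were not in these stretches, and for Pmel the window lay inside the gene as annotated. A match is a string of letters, and binding was not measured.

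**Figure D1:**
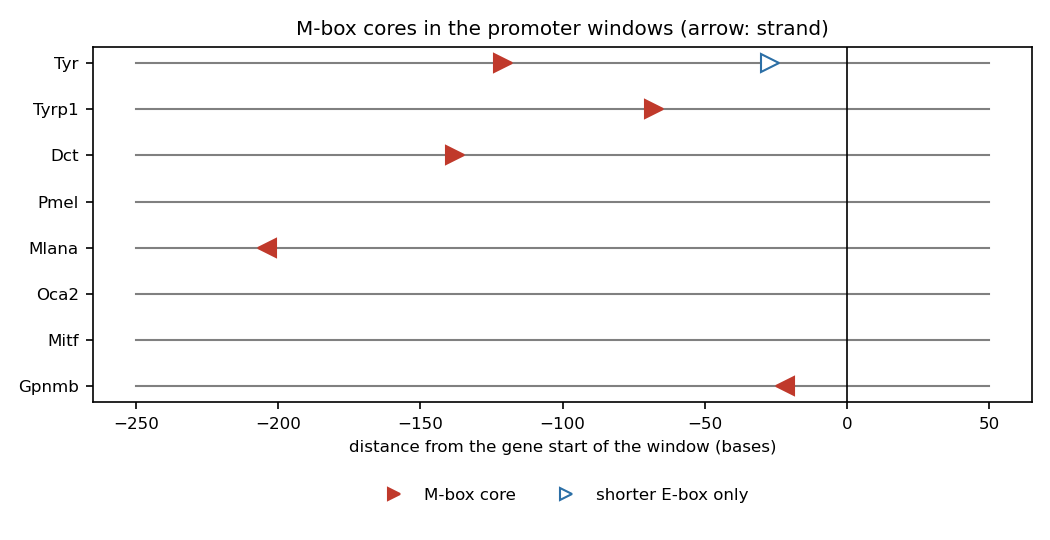
Position of the M-box core (filled red arrow) and of the shorter E-box outside it (open blue arrow) in the RefSeq promoter windows of 8 genes, with the distance from the gene start in bases on the horizontal axis. Arrows pointing right read in the direction of the gene, and the 3 enzyme genes carry theirs between 138 and 68 bases before the start.

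Total counts ran between 47842234 and 52529314 for DMP and between 50900221 and 53255925 for saline. Gnat1, the rod transducin gene and a marker of the labelled tissue, averaged 13441 ± 451 CPM (counts scaled to library size) in DMP retinas and 13614 ± 518 CPM in saline retinas (SD, n = 3 each). On the leading principal component DMP library 30 stood apart, at -53.0. DMP libraries 31 and 33 lay at -7.01 and 0.135, and all saline libraries lay above them, between 17.9 and 23.4. The ribosomal RNA Rn18s, a sign of how well poly(A) selection worked, made up 0.0439% to 0.159% of each DMP library and 0.0121% to 0.0338% of each saline library, and its part in the results was not tested. A deposited value of 4 was more common than its neighbours, with 673 to 741 genes at 4 per library against 301 to 325 at 3 and 218 to 254 at 5, so a low value may stand for fewer fragments than it says.

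Transcripts of the melanin enzymes Tyr and Tyrp1, and of the melanosome proteins Mlana and Pmel, had lower means in DMP retinas, while Mitf and Slc45a2 stood at similar means in the groups. Of the 10 genes 9 reached the count minimum in enough libraries to be tested. The threshold was 0.05 on the Benjamini-Hochberg adjusted p of edgeR's quasi-likelihood test. Of these 9 genes 0 passed it, where 0.0215% of the 18571 genes tested did. By DESeq2 1 of them passed, Tyr (adjusted p = 2.77e-05), and by limma-voom 0 did. At an unadjusted p under 0.05 in edgeR 4 of the 9 were lower in DMP retinas, where 2.56% of all tested genes were lower at that p. This count was 2 without saline library 30 and 6 without DMP library 30 or without saline library 31. Without DMP library 30 all 10 genes, Oca2 included, were tested. Of all tested genes, 698 of 18986 had such a p in either direction without saline library 30. The numbers were 845 of 18937 without DMP library 30 and 829 of 18963 without saline library 31. The set was chosen with earlier results of these data known, so setting it against the share of all genes tests nothing. Tyr, among the 4, entered the test through the saline group. The median log2 fold change, DMP over saline, was -0.58 over the 9 genes and 0.00 over all genes tested. It was -0.24 without saline library 30 and -0.97 without DMP library 30. In bulk tissue, fewer pigment cells in the sample and less transcript per cell cannot be told apart.

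Tyr, the enzyme that starts melanin synthesis, lies on chromosome 1 from 141115036 to 141210207 of build mRatBN7.2. It had 0.115, 0.421 and 0.117 CPM in DMP libraries 30, 31 and 33, against 3.39, 1.03 and 1.29 CPM in saline libraries 30, 31 and 33. Every DMP library lay below every saline library, and DMP library 31 was the highest of its group. The deposited counts behind these levels were 6, 20 and 6 in the DMP libraries and 172, 55 and 67 in the saline libraries. Its log2 fold change was -3.13 (SE 0.596, 95% interval -4.44 to -1.82, edgeR adjusted p = 0.12). It was -2.42 without saline library 30 and -4.01 without DMP library 31. Tyr reached the count minimum in 1 DMP library and in all 3 saline libraries, so it entered the test through the saline group, and its low DMP counts limit the precision of the fold change.

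Tyrp1, which acts in the later steps of eumelanin synthesis and stabilises tyrosinase, lies on chromosome 5 from 95280982 to 95299516. DMP libraries 30, 31 and 33 had 8.35, 7.83 and 6.51 CPM, against 41.6, 13.9 and 17.6 CPM in saline libraries 30, 31 and 33. The 3 DMP libraries were close together and below the whole saline group, in which library 30 stood far above the other two. The log2 fold change was -1.69 (SE 0.331, 95% interval -2.42 to -0.96, edgeR adjusted p = 0.13), and without saline library 30 it was -1.06 (edgeR adjusted p = 0.102).

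Dct, the dopachrome tautomerase between these steps, lies on chromosome 15 from 95062006 to 95100863. Its levels were 19.6, 10.2 and 10.1 CPM in DMP libraries 30, 31 and 33 and 28.3, 12.7 and 18.7 CPM in saline libraries 30, 31 and 33. The groups overlapped, since DMP library 30 lay above saline libraries 31 and 33. The log2 fold change was -0.58 (SE 0.292, 95% interval -1.22 to 0.07, edgeR adjusted p = 1.00), with -0.24 without saline library 30 and -0.97 without DMP library 30.

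Pmel, the fibril protein of the early melanosome, lies on chromosome 7 from 1138202 to 1148735. DMP retinas had 12.5, 6.21 and 5.55 CPM in libraries 30, 31 and 33, against 33.8, 12.7 and 11.8 CPM in saline libraries 30, 31 and 33. The groups overlapped only at DMP library 30, which lay above saline library 33 and just under saline library 31. The fitted log2 fold change of Pmel was -1.27 (SE 0.399, 95% interval -2.14 to -0.39, edgeR adjusted p = 0.612), and -0.60 without saline library 30.

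Mlana, the partner of Pmel in fibril formation, lies on chromosome 1 from 227469537 to 227483343. It had 0.497, 0.463 and 0.332 CPM in DMP libraries 30, 31 and 33 and 2.36, 0.541 and 0.865 CPM in saline libraries 30, 31 and 33. All DMP libraries were below all saline libraries, but the gap between DMP library 30 and saline library 31 was narrow, at counts of 26 and 29. Its log2 fold change was -1.54 (SE 0.519, 95% interval -2.68 to -0.39, edgeR adjusted p = 0.706), and -0.71 without saline library 30. With Tyr and Tyrp1 it made up the 3 genes of the 10 whose DMP libraries all lay below the saline libraries, where 4.88% of all tested genes did so in that direction. Without DMP library 30, and likewise without saline library 33, 5 of the 10 did so. Groups of fewer libraries part more easily, and the share of all genes was not counted there. Without saline library 33 the 5 included Oca2, whose only saline count of 0 was in that library.

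**Figure D2:**
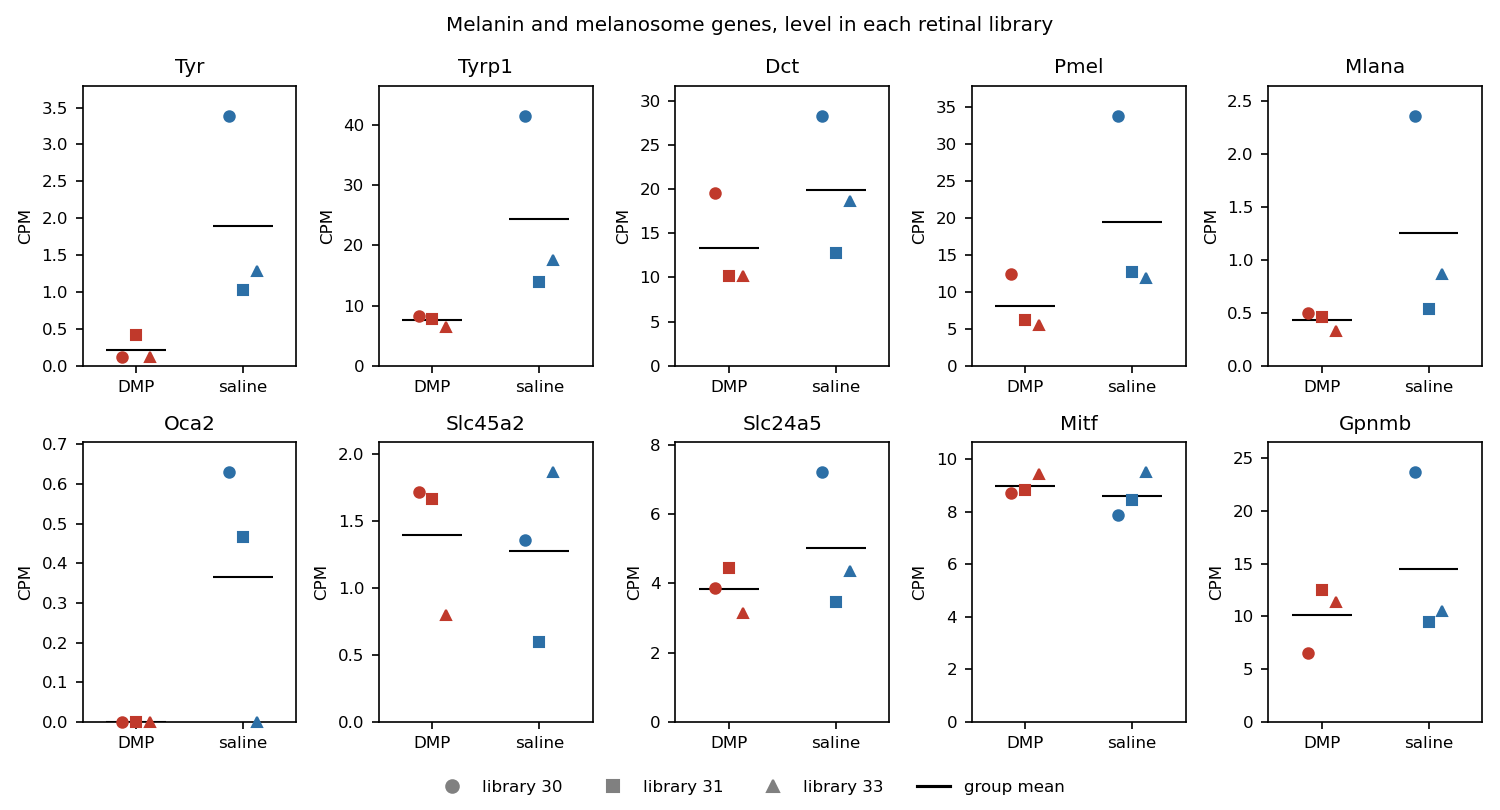
Level in CPM (vertical axes, from 0) of each of the 10 melanin and melanosome genes in every library, DMP left and saline right, with a symbol for each library number and a line at the group mean. Saline library 30 (blue circle) is the highest for 8 of the 10 genes, and the DMP points of Tyrp1 lie between 6.51 and 8.35 CPM.

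The transporters gave no common direction. Oca2, the melanosomal anion channel protein behind oculocutaneous albinism in people, lies on chromosome 1 from 107116278 to 107446093. It had counts of 0, 0 and 0 in the DMP libraries and of 32, 25 and 0 in saline libraries 30, 31 and 33. It reached the count minimum in 0 DMP and 2 saline libraries, too few libraries for it to be tested. The pooled 0.364 CPM of saline retinas lay 18.3-fold above a floor of 3 counts over the DMP group (0.0199 CPM). This bound takes each count as a fragment, though a low deposited value may stand for fewer. It leaves out the spread between libraries, and saline library 33 was also at 0. This bound was 11.9-fold without saline library 30 and 27.5-fold without saline library 33.

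Slc45a2, a melanosomal sugar and proton transporter, lies on chromosome 2 from 59963599 to 59996408. It had 1.72, 1.66 and 0.801 CPM in DMP libraries 30, 31 and 33, against 1.36, 0.596 and 1.87 CPM in saline libraries 30, 31 and 33. The groups covered the same range (log2 fold change 0.13, SE 0.412, 95% interval -0.78 to 1.04, in edgeR). Slc24a5, a potassium-dependent sodium and calcium exchanger, lies on chromosome 3 from 112319305 to 112339231. Its levels were 3.88, 4.44 and 3.15 CPM in DMP libraries 30, 31 and 33 and 7.205, 3.47 and 4.37 CPM in saline libraries 30, 31 and 33. Saline library 30 was high and the rest overlapped. The log2 fold change of Slc24a5 was -0.39 (SE 0.252, 95% interval -0.95 to 0.16, in edgeR), and -0.04 without saline library 30.

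Mitf, the transcription factor that binds the M-box, lies on chromosome 4 from 130409020 to 130621145. It had 8.71, 8.82 and 9.44 CPM in DMP libraries 30, 31 and 33, against 7.87, 8.43 and 9.50 CPM in saline libraries 30, 31 and 33. Saline library 30, the highest for 8 of the 10 genes, was the lowest for Mitf. The log2 fold change of Mitf was 0.06 (SE 0.117, 95% interval -0.19 to 0.32, in edgeR), the narrowest interval of the 9 tested genes. Its count sums all isoforms, and Mitf is also made by cells that hold no melanin, among them macrophages.

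Gpnmb lies on chromosome 4 from 78010247 to 78031491. DMP libraries 30, 31 and 33 had 6.51, 12.5 and 11.4 CPM, and saline libraries 30, 31 and 33 had 23.7, 9.47 and 10.5 CPM. DMP libraries 31 and 33 lay above saline libraries 31 and 33, while DMP library 30 was the lowest and saline library 30 the highest of all. The log2 fold change of Gpnmb was -0.52 (SE 0.327, 95% interval -1.24 to 0.20, in edgeR), and 0.018 without saline library 30.

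**Figure D3:**
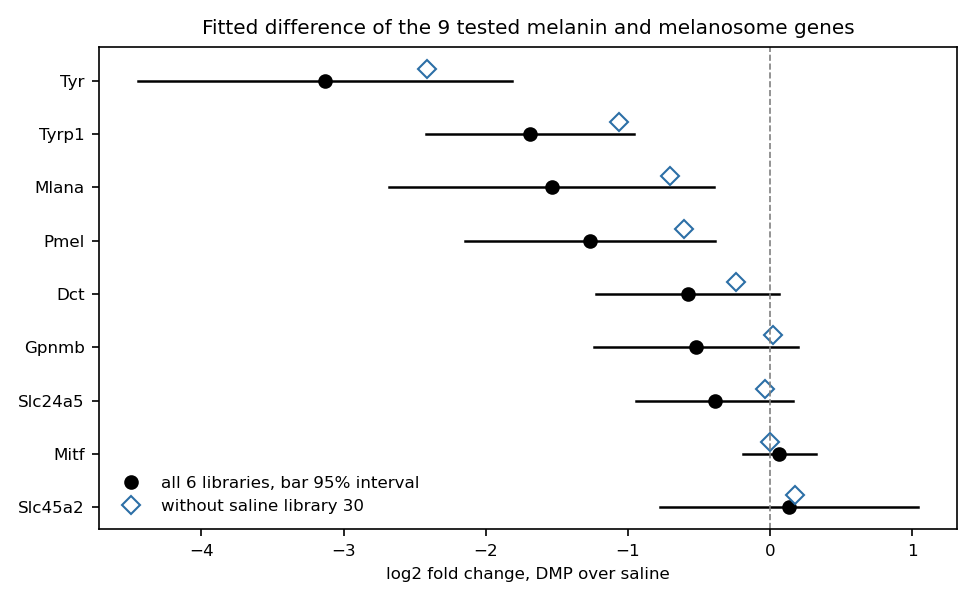
Log2 fold change, DMP over saline (horizontal axis), of the 9 tested genes from edgeR with all 6 libraries (black points, bars give the 95% interval) and without saline library 30 (open diamonds). The intervals of Tyr, Tyrp1, Mlana and Pmel do not reach 0, although no adjusted p passes, and the diamonds of Gpnmb, Slc24a5 and Mitf lie within 0.04 of 0.

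Summed over the 10 genes, levels were 61.8, 52.5 and 47.4 CPM in DMP libraries 30, 31 and 33, against 150.1, 63.3 and 76.5 CPM in saline libraries 30, 31 and 33. The sums of the groups came within a few CPM of each other at DMP library 30 and saline library 31, and the saline mean was raised by library 30. Of the 10 genes, 8 were highest in saline library 30 and the other two, Slc45a2 and Mitf, in saline library 33.

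Levels between genes were compared per length with the authors' FPKM values, fragments scaled to transcript length and library size. In DMP retinas the order by mean FPKM was Dct (5.47), Pmel (5.37), Gpnmb (3.97), Mitf (3.45), Tyrp1 (1.27), Slc24a5 (0.540), Slc45a2 (0.454), Mlana (0.215), Tyr (0.197) and Oca2, listed at 0. Neighbours in this order overlapped between libraries except Mitf and Tyrp1, Tyrp1 and Slc24a5, Slc45a2 and Mlana, and Tyr and Oca2. In saline retinas it was Pmel (13.0), Dct (8.23), Gpnmb (5.70), Tyrp1 (4.09), Mitf (3.31), Tyr (1.74), Slc24a5 (0.709), Mlana (0.643), Slc45a2 (0.421) and Oca2 (0.0422). All neighbours overlapped there except Slc45a2 and Oca2. Tyr stood between Mlana and Oca2 in DMP retinas and above Slc24a5 in saline retinas. The length implied by counts and FPKM was 1100 bases for Tyr and 5951 for Tyrp1, so the order rests on the transcript models that the authors used.

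The wider machinery of the melanosome, much of which every cell uses for lysosome-related organelles, gave fold changes centred near 0. Of 20 genes of the trafficking complexes that carry cargo to melanosomes (the BLOC, AP-3 and HPS proteins, Rab32, Rab38 and Lyst), all were tested and 0 passed in edgeR, with 0 at an unadjusted p under 0.05, and their median log2 fold change was 0.00. In this list, the 2 pigment lists that follow and the lists of pigment epithelium, melanocyte lineage, fibroblast and neural retina genes, DESeq2 and limma-voom also called 0 genes. Lyst, the lysosomal trafficking regulator, averaged 168.4 ± 5.96 CPM in DMP retinas and 180.8 ± 13.3 CPM in saline retinas (SD, n = 3 each), Bloc1s2 averaged 12.7 ± 0.652 CPM in DMP retinas and 11.4 ± 1.10 CPM in saline retinas, and the AP-3 subunit Ap3d1 averaged 287.6 ± 16.6 CPM in DMP retinas and 298.2 ± 14.6 CPM in saline retinas. Of 15 genes for melanosome movement and ion flow 14 were tested, and again 0 passed in edgeR, with a median of -0.02. Melanophilin (Mlph), the adaptor that joins Rab27a on the melanosome to the motor myosin Va, was the 1 gene of these 14 with an unadjusted p under 0.05, a share near that of all tested genes, of which 2.56% were lower and 2.08% higher at that p.

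Mlph had 2.52, 2.06 and 2.58 CPM in DMP libraries 30, 31 and 33, against 4.84, 4.40 and 3.37 CPM in saline libraries 30, 31 and 33. Every DMP library was below every saline library, as for 4.88% of all tested genes, and no single saline library stood far from the others (log2 fold change -0.81, SE 0.19, edgeR adjusted p = 0.242). The partners of Mlph did not show such a gap: Rab27a had 8.38, 8.95 and 10.6 CPM in DMP libraries and 10.98, 10.3 and 9.69 CPM in saline libraries, and Myo5a, the myosin Va gene, had 343.3, 343.6 and 332.8 CPM in DMP libraries and 347.6, 328.4 and 350.3 CPM in saline libraries. Bace2, a protease that cuts Pmel, averaged 1.23 ± 0.301 CPM in DMP retinas and 1.87 ± 0.739 CPM in saline retinas, with overlapping groups. Gpr143, the melanosomal receptor of ocular albinism, stayed under 1 CPM in every library. Rab17 had no count in any library.

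Of 21 ligands, receptors and transcription factors of pigment cells 18 were tested, 0 passed in edgeR and 0 had an unadjusted p under 0.05, with a median of -0.01. Lef1, a nuclear partner of Wnt signals, averaged 1.75 ± 0.343 CPM in DMP retinas and 1.13 ± 0.343 CPM in saline retinas, with no overlap, as for 4.42% of all tested genes in that direction (log2 fold change 0.62, SE 0.284). The stem cell factor receptor Kit averaged 19.1 ± 3.04 CPM in DMP retinas and 21.7 ± 1.41 CPM in saline retinas. Pax6 and Otx2, eye transcription factors that neurons of the retina also make, were far higher, at 257.4 ± 8.08 and 543.1 ± 19.1 CPM in DMP retinas against 272.0 ± 11.7 and 527.9 ± 17.3 CPM in saline retinas.

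**Figure D4:**
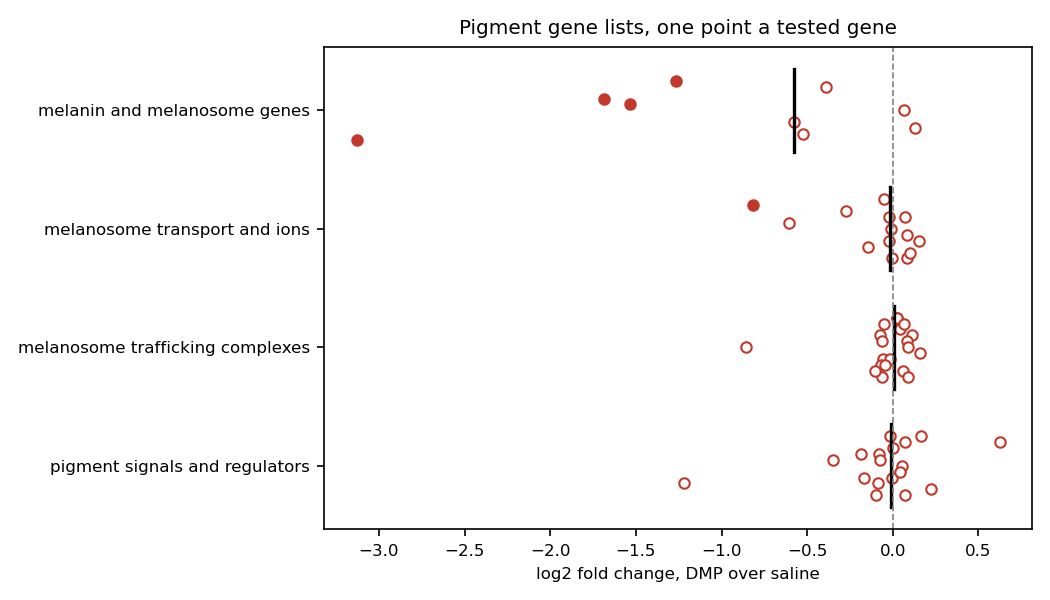
Log2 fold change, DMP over saline (horizontal axis), of every tested gene in 4 lists, with filled points for an unadjusted p under 0.05 and a black line at the list median. The melanin and melanosome genes have a median of -0.58, and the other 3 lists have medians between -0.02 and 0.00 with 1 filled point, Mlph.

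Markers of the tissues that hold melanin were read beside these values. Rpe65, the retinoid isomerase that defines the pigment epithelium, had 15.2, 4.86 and 6.78 CPM in DMP libraries 30, 31 and 33, against 6.08, 4.75 and 9.10 CPM in saline libraries 30, 31 and 33. DMP library 30 was the highest for Rpe65, and the groups overlapped. Over the pigment epithelium list, which left out melanin genes, 12 of 12 were tested, 0 passed in edgeR and 0 had an unadjusted p under 0.05, with a median of 0.10. Without DMP library 30 the median was -0.23. In that fit 2 of the 12 had an unadjusted p under 0.05 in either direction, against 845 of all 18937 genes tested. Its summed level was 437.3 to 495.9 CPM in DMP libraries and 469.5 to 508.9 CPM in saline libraries, mostly from Rlbp1 and Trpm3, which glia and neurons of the retina also make. Rlbp1 averaged 265.6 ± 9.86 CPM in DMP retinas and 279.3 ± 26.5 CPM in saline retinas, and Trpm3 112.7 ± 6.39 CPM in DMP retinas and 123.6 ± 9.53 CPM in saline retinas.

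Most ciliary and iris genes had lower values in DMP retinas, with 7 of 11 below at an unadjusted p under 0.05, where 2.56% of all tested genes were, and 1, Mfrp, past the threshold in edgeR (2 with DESeq2, Mfrp and Zic1, and 0 with limma-voom). Without saline library 30, and likewise without DMP library 30, 5 of the 11 had an unadjusted p under 0.05 in either direction. Of all tested genes, 698 of 18986 did so without saline library 30 and 845 of 18937 without DMP library 30. Mfrp, a membrane protein of pigment and ciliary epithelium that resembles frizzled receptors, fell to 3.93, 3.56 and 3.69 CPM in DMP libraries 30, 31 and 33, against 18.0, 9.51 and 11.02 CPM in saline libraries 30, 31 and 33 (log2 fold change -1.78, edgeR adjusted p = 0.0307). This call was lost without DMP library 31 (edgeR adjusted p = 0.13) or saline library 33 (0.0701), with limma-voom (adjusted p = 0.0875) and with limma on log2(FPKM + 0.1) (adjusted p = 0.289). As for Tyrp1, the DMP libraries lay close together and saline library 30 was the highest. Opticin (Optc), a vitreous protein made by the ciliary epithelium, averaged 9.62 ± 9.48 CPM in DMP retinas and 43.9 ± 8.83 CPM in saline retinas, and the ciliary transcription factor Zic1 averaged 4.77 ± 1.17 CPM in DMP retinas and 9.11 ± 1.21 CPM in saline retinas. Aqp1, a water channel that other eye tissues share, averaged 83.6 ± 4.18 CPM in DMP retinas and 83.8 ± 8.24 CPM in saline retinas. The median log2 fold change of the list was -0.63. The summed level of the list was 124.6 to 164.3 CPM in DMP libraries and 188.3 to 237.4 CPM in saline libraries, with its highest value in saline library 30. Its part in the lower levels of melanin genes was not tested.

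Of the melanocyte lineage list, whose genes are all in the list of pigment signals and regulators, 4 of 6 genes were tested and 0 passed in edgeR, with 0 at an unadjusted p under 0.05. The median log2 fold change of these 4 was -0.27. Pax3, a factor of neural crest melanocytes, had no count outside saline library 30, where it was at 0.0787 CPM. Sox10, which acts above Mitf in neural crest melanocytes, averaged 0.109 ± 0.0956 CPM in DMP retinas and 0.262 ± 0.0271 CPM in saline retinas, and DMP library 31 was at 0. The melanocortin receptor Mc1r stayed at or under 0.231 CPM. The sum of this list, 55.3 to 62.9 CPM in DMP libraries and 50.9 to 62.3 CPM in saline libraries, came almost wholly from Kit and Ednrb, and Ednrb averaged 38.9 ± 5.56 CPM in DMP retinas and 34.7 ± 7.54 CPM in saline retinas.

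Fibroblast genes of the eye wall also had lower values, with 5 of 8 below at an unadjusted p under 0.05, where 2.56% of all tested genes were, and 0 past the threshold in edgeR. Their median log2 fold change was -1.26, and their summed level was 38.6 to 65.8 CPM in DMP libraries and 91.7 to 100.1 CPM in saline libraries. The small proteoglycan Ogn averaged 7.97 ± 4.73 CPM in DMP retinas and 24.3 ± 7.22 CPM in saline retinas, Fmod 11.1 ± 6.16 CPM in DMP retinas and 26.96 ± 5.50 CPM in saline retinas, and the receptor Pdgfra 17.9 ± 1.15 CPM in DMP retinas and 18.5 ± 0.394 CPM in saline retinas. The sum of lens genes was 9.57 to 40.5 CPM in DMP libraries and 23.9 to 45.4 CPM in saline libraries, with 4 of 9 tested genes below at an unadjusted p under 0.05, against 2.56% of all tested genes (0 past the threshold in edgeR and limma-voom, 1, Crygc, in DESeq2), among them Crygd (0.929 ± 0.658 CPM in DMP retinas and 4.04 ± 1.81 CPM in saline retinas) and Crygc (0.198 ± 0.134 CPM in DMP retinas and 0.998 ± 0.483 CPM in saline retinas), while Cryaa averaged 10.03 ± 13.5 CPM in DMP retinas and 9.51 ± 9.23 CPM in saline retinas. Crygd and Crygc resemble each other closely, so reads may be shared between them and either value is uncertain. The lens list had a median log2 fold change of -0.62. The part of either tissue in the melanin gene values was not tested.

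For Gpnmb, markers of macrophages were read as well, since these cells can make it. Of 14 microglia and macrophage genes 13 had a log2 fold change above 0, with 7 higher at an unadjusted p under 0.05, where 2.08% of all tested genes were, and the list median was 0.54. Without DMP library 31, 11 of the 14 had an unadjusted p under 0.05 in either direction, against 834 of all 19027 genes tested. Of the 14 0 passed the threshold in edgeR and limma-voom and 4 in DESeq2 (C1qb, Cd68, Csf1r and Ctss). The summed level was 191.4 to 248.3 CPM in DMP libraries and 143.8 to 182.2 CPM in saline libraries. It was lowest in saline library 30, the 1 library where Gpnmb was highest. The part of these cells in the Gpnmb values was not tested. Cd68 averaged 4.56 ± 0.995 CPM in DMP retinas and 1.97 ± 0.521 CPM in saline retinas, and Ctss 48.2 ± 4.63 CPM in DMP retinas and 31.8 ± 4.69 CPM in saline retinas. Of 9 tested companions of Gpnmb in activated phagocytes, 3 were higher at an unadjusted p under 0.05, against 2.08% of all tested genes. Without DMP library 33, 5 had such a p in either direction, against 845 of all 18988 genes tested. Of the 9, 0 passed in edgeR and limma-voom and 1, Axl, in DESeq2. Axl averaged 14.5 ± 1.59 CPM in DMP retinas and 8.82 ± 1.43 CPM in saline retinas, and Clec7a 1.52 ± 0.425 CPM in DMP retinas and 0.706 ± 0.205 CPM in saline retinas. Apoe and Ctsd, which many retinal cells make, averaged 430.7 ± 38.0 and 211.8 ± 5.43 CPM in DMP retinas against 459.8 ± 33.2 and 219.6 ± 10.01 CPM in saline retinas.

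**Figure D5:**
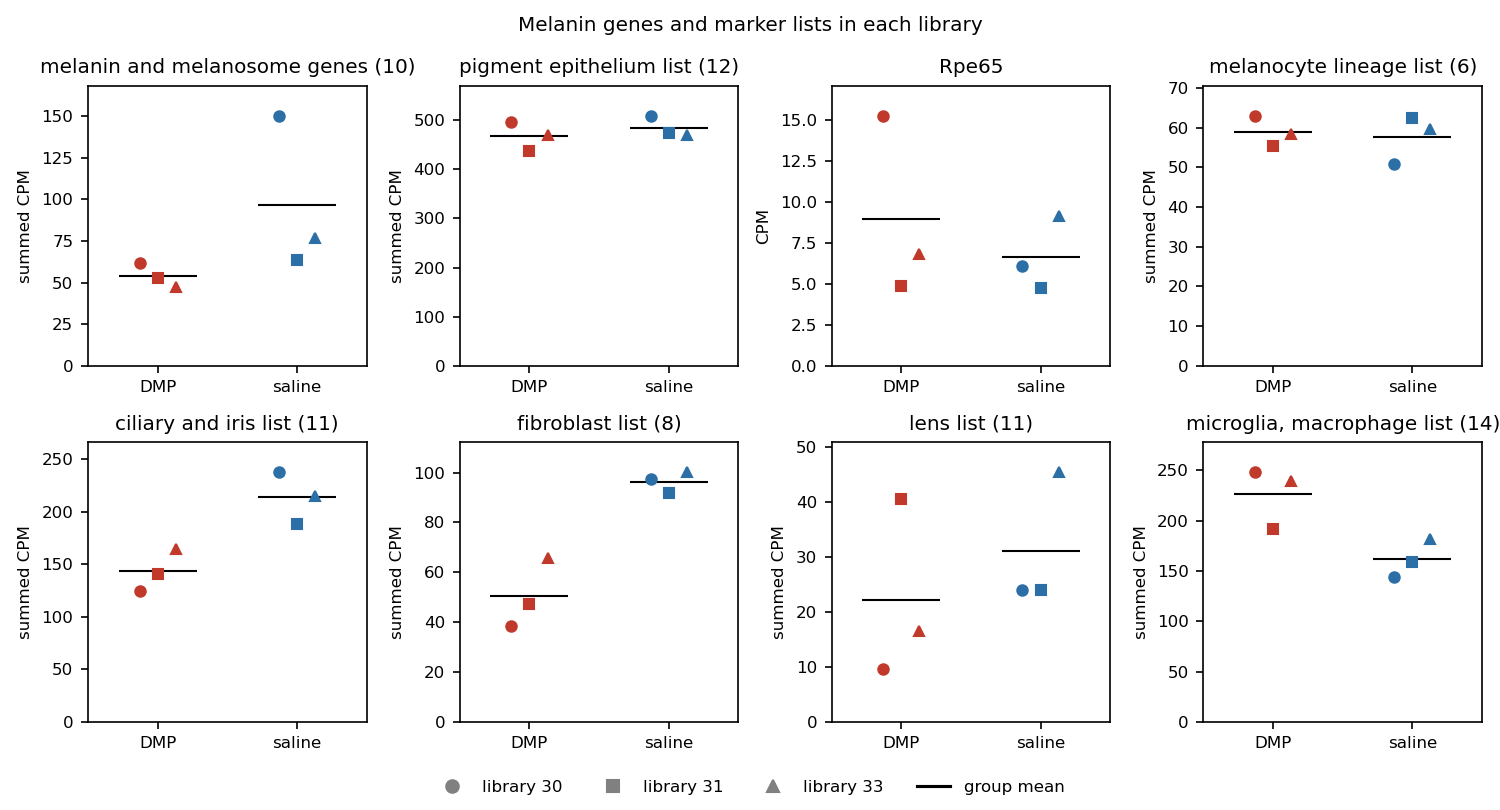
Summed CPM (CPM for Rpe65, vertical axes from 0) of the 10 melanin and melanosome genes and of marker lists in every library, DMP left and saline right, with the number of genes in brackets and a line at the group mean. The ciliary and iris sums lie between 124.6 and 164.3 CPM in DMP libraries and between 188.3 and 237.4 CPM in saline libraries, while pigment epithelium sums overlap.

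Among markers of neural retina 12 of 12 were tested, 0 passed in edgeR and 0 had an unadjusted p under 0.05, with a median of -0.01. The horizontal cell factor Lhx1 averaged 3.57 ± 0.887 CPM in DMP retinas and 4.55 ± 0.640 CPM in saline retinas.

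The genes outside the set whose pattern over the 6 libraries was most like that of Tyrp1 were sought among 15294 genes with a mean of at least 1 CPM. By Pearson correlation of log2 CPM they were Pld5 (r = 0.99), Dnajc30 (0.98), Susd2 (0.98), Cmtm4 (0.97) and Chst11 (0.97). They were picked as the highest of many, so these coefficients describe and test nothing, and the libraries share the groups and the high saline library 30. Pld5, a member of the phospholipase D family, had 1.97, 1.83 and 1.99 CPM in DMP libraries 30, 31 and 33, against 5.24, 2.68 and 3.35 CPM in saline libraries 30, 31 and 33. Without saline library 30 and DMP library 33, the pair farthest from the median of Tyrp1, r over the other 4 libraries ran from 0.92 to 1.00. None of the 5 passed the threshold in edgeR.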

How the data were processed

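Retinal RNA of 6 libraries was sequenced after poly(A) selection, with dUTP marking of the second strand and PCR, per the labels' protocols. The submitters' processing notes name cutadapt 1.9, FastQC and build mRatBN7.2. The sources used here name no aligner or counting tool and do not say whether strand was used. The authors' deposited table of whole-number estimated counts covers 34335 genes, and the authors' deposited FPKM table covers 24744. Repeated counts differed for 0 genes.

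Genes were kept with edgeR's default filter (minimum count 10, total 15). Groups were compared two-sided in R 4.3.3 by the edgeR 4.0.16 quasi-likelihood test, with trimmed mean of M-values factors and group as the only term, fitted over all 18571 genes kept, with Benjamini-Hochberg adjustment and a threshold of 0.05. It was tested on simulated data. Standard errors are the absolute log2 fold change over the square root of F. CPM are counts relative to scaled library size. Intervals cover the spread between libraries; the floor of 3 counts covers counting error only. Alternatives used DESeq2 1.42.0, limma 3.58.1, other filters, a replicate block and each library left out.

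The members and lists were chosen with earlier results of these data known. Named genes were all 10 members, of each other list those past the threshold, the 2 of smallest p and the 2 of highest mean FPKM, and the 5 most like Tyrp1; a few other genes (Rab27a, Myo5a, Gpr143, Rab17, Pax3, Mc1r and Ednrb among them) were named for their role after values were seen. Chromosome names came from RefSeq by gene ID for 10 of 10 genes. Some genes that this rule names are not reported here.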

Additional observations from a re-analysis of the deposited data

How the results depend on the processing

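The number of genes past the threshold, 4 in edgeR, was 92 with DESeq2, 12 with the stricter filter (mean of at least 1 CPM), 45 with the number as a replicate block, and 0 to 81 with a library left out (0 without DMP 31, with 834 at an unadjusted p under 0.05, 9 without DMP 30, 81 without DMP 33 and 2 without saline 33). Of the 10 melanin and melanosome genes 1 passed with DESeq2 (Tyr) and 2 with the replicate block (Tyrp1, adjusted p = 0.0416, and Pmel, adjusted p = 0.0122, in edgeR). Same-numbered libraries deviated together with r of 0.066, 0.035 and 0.028, under the 0.1 set for pairing, and DMP 31 was closer to saline 33 (0.046). The main fit therefore left the number out, but a cutoff on r cannot tell whether same-numbered libraries share an animal or a batch. With a library left out, 0 of the 10 passed, and the median ran from -0.97 to -0.24. Of the 10, 2 to 6 were lower at an unadjusted p under 0.05 (2, Tyr and Tyrp1, without saline 30). In these refits 698 (without saline 30) to 1558 (without saline 33) of all tested genes had such a p in either direction. For 3 to 5 of the 10, all DMP lay below all saline libraries (5 without DMP 30 or saline 33). The share of all genes without overlap was not counted in these refits. The counts at an unadjusted p and of groups without overlap were added as alternatives after seeing the data, as was the bound on Oca2 with a saline library left out. Over the 10 genes, with Oca2 at its bound, the median was -0.92. That bound is not a fitted value, and Oca2 reached the count minimum only in saline libraries, so this median adds no support. Tyr, Tyrp1, Dct, Pmel, Mlana and Slc24a5 were below 0 under every alternative that gave a value. Slc45a2 ran from -0.21 to 0.51 with a library left out (-0.05 without DMP 30, -0.013 without DMP 31, -0.21 without saline 31), and Gpnmb from -0.76 to 0.018 (above 0 without saline 30). The cause was not tested. The lens list median ran from -2.04 without DMP 31 to -0.30 without DMP 33, and that of the pigment epithelium was -0.23 without DMP 30. Low counts of Tyr, Mlana and Oca2 limit their precision.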
